A study of Homo sapiens with 3 samples.

Results

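Genes that drive cells through mitosis were examined in RNA-seq data from HGC-27 cells, a human line derived from gastric cancer. The set held 51 of the 58735 genes in the deposited table, chosen by name as mitotic kinases, cyclins, checkpoint, kinetochore, spindle, cytokinesis and condensin genes, and all 51 had a row. Of these, 50 averaged 1 FPKM or more (fragments per kilobase of gene length, scaled to library size) and were tested among 13852 such genes. The shUSP16 group had 2 libraries named shUSP16-1 and shUSP16-2, and it was set against 1 library named shControl, whose genotype the labels give as WT. The label shUSP16 stands for a short hairpin RNA against USP16, and the labels leave unsaid if the library numbers denote separate hairpins or repeats of one. No label names separate cultures, so a p-value here reflects how far these libraries scatter, and that scatter may be technical. The labels' extraction text for all 3 libraries also describes dexamethasone, isobutylmethylxanthine and insulin, and whether these cells received them is unclear.

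Reads recovered from the FPKM values came to 29530581 in shUSP16-1, 31187845 in shUSP16-2 and 30131136 in shControl. USP16 itself had 4.29 FPKM in shUSP16-1 and 5.98 FPKM in shUSP16-2, against 6.28 FPKM in shControl, a lower value in both libraries labelled shUSP16. Relative to shControl, shUSP16-1 stood at 0.683, with a 95% interval (exact, from binomial counting) of 0.621 to 0.749. shUSP16-2 stood at 0.952, with 0.875 to 1.04, so its interval held 1 with the authors' scaling. Scaled to equal sums of reads, the ratios were 0.639 (0.582 to 0.702) in shUSP16-1 and 0.876 (0.805 to 0.953) in shUSP16-2, both below 1 beyond counting error. These intervals cover counting error only. In limma on log2(FPKM + 1), the test used below for the mitotic genes, USP16 had a difference of -0.261 (SE 0.198, adjusted p = 0.564). It was not called, so the lower USP16 of the shUSP16 group was not established beyond the scatter of these libraries. All 7 gastric epithelial markers examined, among them EPCAM, KRT18 and CDH1, lay under 1 FPKM in every library, summing to 0.537 FPKM in shUSP16-1, 0.297 in shUSP16-2 and 0.956 in shControl. The 5 mesenchymal markers summed to 411 FPKM in shUSP16-1, 519 in shUSP16-2 and 405 in shControl, most of it VIM, COL1A1 and COL3A1, while FN1 had 0.957, 1.05 and 0.605 FPKM in these libraries. The stomach epithelium named as the tissue is thus not seen in its defining markers, while the markers of blood cells, endothelium and adipocytes also lay under 1 FPKM throughout. With bulk RNA, a different share of cells in mitosis and a different amount of RNA per mitotic cell cannot be told apart.

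Mitosis starts when cyclin B bound to the kinase CDK1 is activated by CDC25 phosphatases, while PLK1 and the Aurora kinases build the spindle. Kinetochores tie chromosomes to microtubules, and the spindle checkpoint holds back CDC20, the activator of the anaphase-promoting complex (APC/C), until all are attached. Transcripts of these genes accumulate in G2 and mitosis, and the gene promoters commonly carry a cell cycle genes homology region (CHR), bound by the MuvB complex, together with CCAAT boxes bound by NF-Y. USP16 removes ubiquitin from histone H2A and has been reported to act on PLK1 at kinetochores.

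A larger share of the mitotic genes than of other genes had these letters at the promoter. Promoter windows from RefSeq (GRCh38.p14), each covering 250 bases before to 50 bases after a gene's start, were listed for 44 of the 51 genes. The CHR letters TTTGAA or TTCGAA, on either strand, stood in a window of 35 of those 44 genes (79.5%), against 15.1% of 8860 tested protein-coding genes and 19.5% of all 27305 genes in the table. CCAAT, on either strand, stood in 35 of 44 (79.5%), against 43.9% of tested protein-coding genes and 39.7% of all genes listed. Neither motif contains the other, although neighbouring matches may share bases. Both were in the same window for 28 of 44 mitotic genes (63.6%), against 6.37% of tested protein-coding genes and 7.85% of all genes listed. Of 15 S phase genes in the table, which serve as a neighbouring cell cycle group, 2 had the CHR letters (13.3%) and 11 had CCAAT (73.3%). These are matches of letters, with no measurement of binding.

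Printed here are the windows of PLK1 and CCNB1, as the central kinase and cyclin, and of the members with the highest (NCAPG, NCAPH) and the lowest (CCNB2, ECT2) differences from shControl among those listed, with CHR and CCAAT matches in capitals. They run 5′ to 3′ on the plus strand and are at chr16:23678639-23678938 for PLK1, chr5:69166900-69167199 for CCNB1, chr4:17810729-17811028 for NCAPG, chr2:96335516-96335815 for NCAPH, chr15:59104896-59105195 for CCNB2 and chr3:172750476-172750775 for ECT2, whose first of 2 windows is shown.
PLK1: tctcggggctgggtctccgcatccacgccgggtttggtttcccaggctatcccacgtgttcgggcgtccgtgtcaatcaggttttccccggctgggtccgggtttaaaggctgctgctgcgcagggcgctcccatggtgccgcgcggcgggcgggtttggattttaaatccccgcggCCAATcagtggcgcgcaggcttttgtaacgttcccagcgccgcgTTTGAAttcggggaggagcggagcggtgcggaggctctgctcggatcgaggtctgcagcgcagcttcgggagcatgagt
CCNB1: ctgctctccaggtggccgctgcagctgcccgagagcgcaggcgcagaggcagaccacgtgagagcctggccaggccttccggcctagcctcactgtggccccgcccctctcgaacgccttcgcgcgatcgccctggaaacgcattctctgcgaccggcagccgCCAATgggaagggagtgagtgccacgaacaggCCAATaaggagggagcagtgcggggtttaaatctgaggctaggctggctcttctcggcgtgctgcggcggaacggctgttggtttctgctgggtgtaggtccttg
NCAPG: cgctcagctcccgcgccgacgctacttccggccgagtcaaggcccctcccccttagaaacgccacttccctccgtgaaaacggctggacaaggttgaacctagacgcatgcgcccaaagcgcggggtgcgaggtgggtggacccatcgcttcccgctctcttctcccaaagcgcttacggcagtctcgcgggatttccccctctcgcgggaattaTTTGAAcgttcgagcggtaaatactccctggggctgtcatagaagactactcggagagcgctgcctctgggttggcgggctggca
NCAPH: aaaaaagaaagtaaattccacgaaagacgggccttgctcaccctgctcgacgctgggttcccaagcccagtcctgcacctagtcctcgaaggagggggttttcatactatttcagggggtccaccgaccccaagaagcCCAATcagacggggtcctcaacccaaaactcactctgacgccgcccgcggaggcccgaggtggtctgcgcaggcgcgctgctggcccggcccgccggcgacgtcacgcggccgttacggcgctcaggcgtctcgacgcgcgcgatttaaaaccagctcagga
CCNB2: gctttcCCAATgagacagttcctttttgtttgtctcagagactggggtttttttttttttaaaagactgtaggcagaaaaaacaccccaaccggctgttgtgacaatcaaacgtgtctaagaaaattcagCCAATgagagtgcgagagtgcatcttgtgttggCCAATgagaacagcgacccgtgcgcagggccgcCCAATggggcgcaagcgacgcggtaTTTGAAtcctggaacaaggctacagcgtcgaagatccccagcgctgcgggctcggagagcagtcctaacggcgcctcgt
ECT2: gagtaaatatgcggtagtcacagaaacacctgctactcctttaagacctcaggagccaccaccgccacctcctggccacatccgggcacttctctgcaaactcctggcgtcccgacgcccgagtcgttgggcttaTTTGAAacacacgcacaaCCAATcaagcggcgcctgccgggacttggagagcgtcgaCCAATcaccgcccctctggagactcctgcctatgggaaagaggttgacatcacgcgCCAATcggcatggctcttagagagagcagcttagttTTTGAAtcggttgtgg
TTTGAA began 29 bases before the start in PLK1 and CCNB2 and 35 bases before it in NCAPG. In CCNB2, 4 CCAAT matches preceded it, at 244, 120, 87 and 54 bases before the start. CCNB1 had CCAAT at 87 and 55 bases before the start and no CHR letters as searched, and NCAPH had 1 CCAAT and no CHR letters. Among the members listed, CCNB2 and ECT2, the lowest by difference from shControl, had CHR letters, as did NCAPG, the highest, while NCAPH had none. Across members the median log2 difference was 0.15 for 34 tested genes with CHR letters (range -0.11 to 0.39) and 0.079 for 9 without (range -0.074 to 0.36). The ranges overlapped, and the gap between the medians was not tested.

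**Figure D1:**
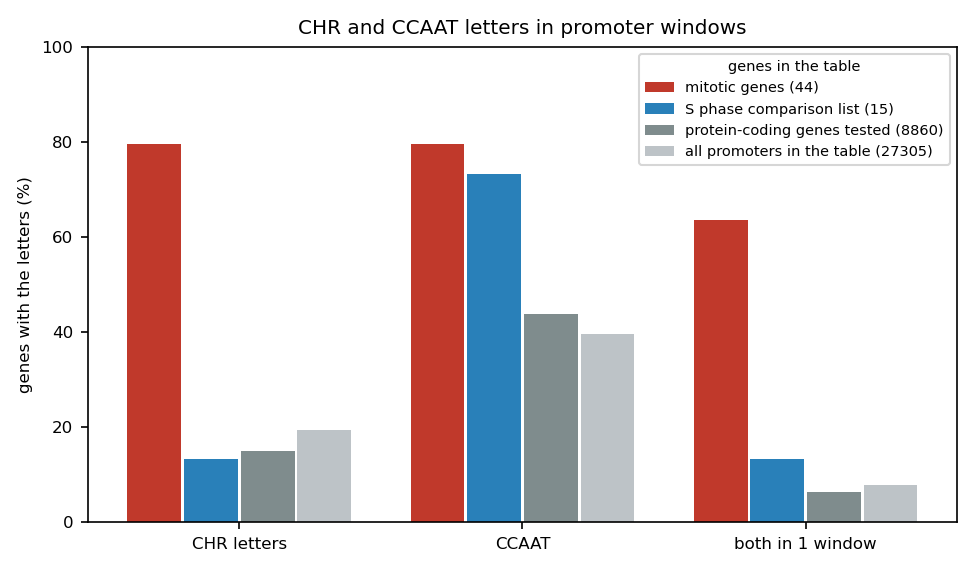
Bars give the percentage of genes with at least 1 promoter window holding the CHR letters, CCAAT, or both in 1 window, for mitotic genes, S phase genes, tested protein-coding genes and all genes in the promoter table. CHR letters stand in 79.5% of mitotic genes and in 13.3% to 19.5% of the other sets, while CCAAT is about as common in S phase genes as in mitotic genes.

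Most mitotic genes were well expressed. Averaged over the 3 libraries, levels ran from 130.4 FPKM for TOP2A, the topoisomerase that untangles chromosomes, and 124.5 FPKM for CDC20, down to 4.59 FPKM for CDC25C, with PRC1 listed at 0.486 FPKM. UBE2C, an E2 enzyme that works with the APC/C, averaged 106 FPKM and CCNB1 94.9 FPKM. PLK1, at 25.9 FPKM, lay at or above 89.3% of all tested genes. TOP2A had 129.7 FPKM in shUSP16-1 and 141.7 FPKM in shUSP16-2, against 119.8 FPKM in shControl, and CDC20 lay near it in shUSP16-2, at 141.7 FPKM. Subunits of one complex differed in level. In the chromosomal passenger complex AURKB was 2.80 times INCENP in shUSP16-1, 3.06 times in shUSP16-2 and 3.52 times in shControl on the FPKM scale. In the NDC80 complex SPC24 was 1.94, 1.76 and 2.23 times SPC25 in the same order of libraries.

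**Figure D2:**
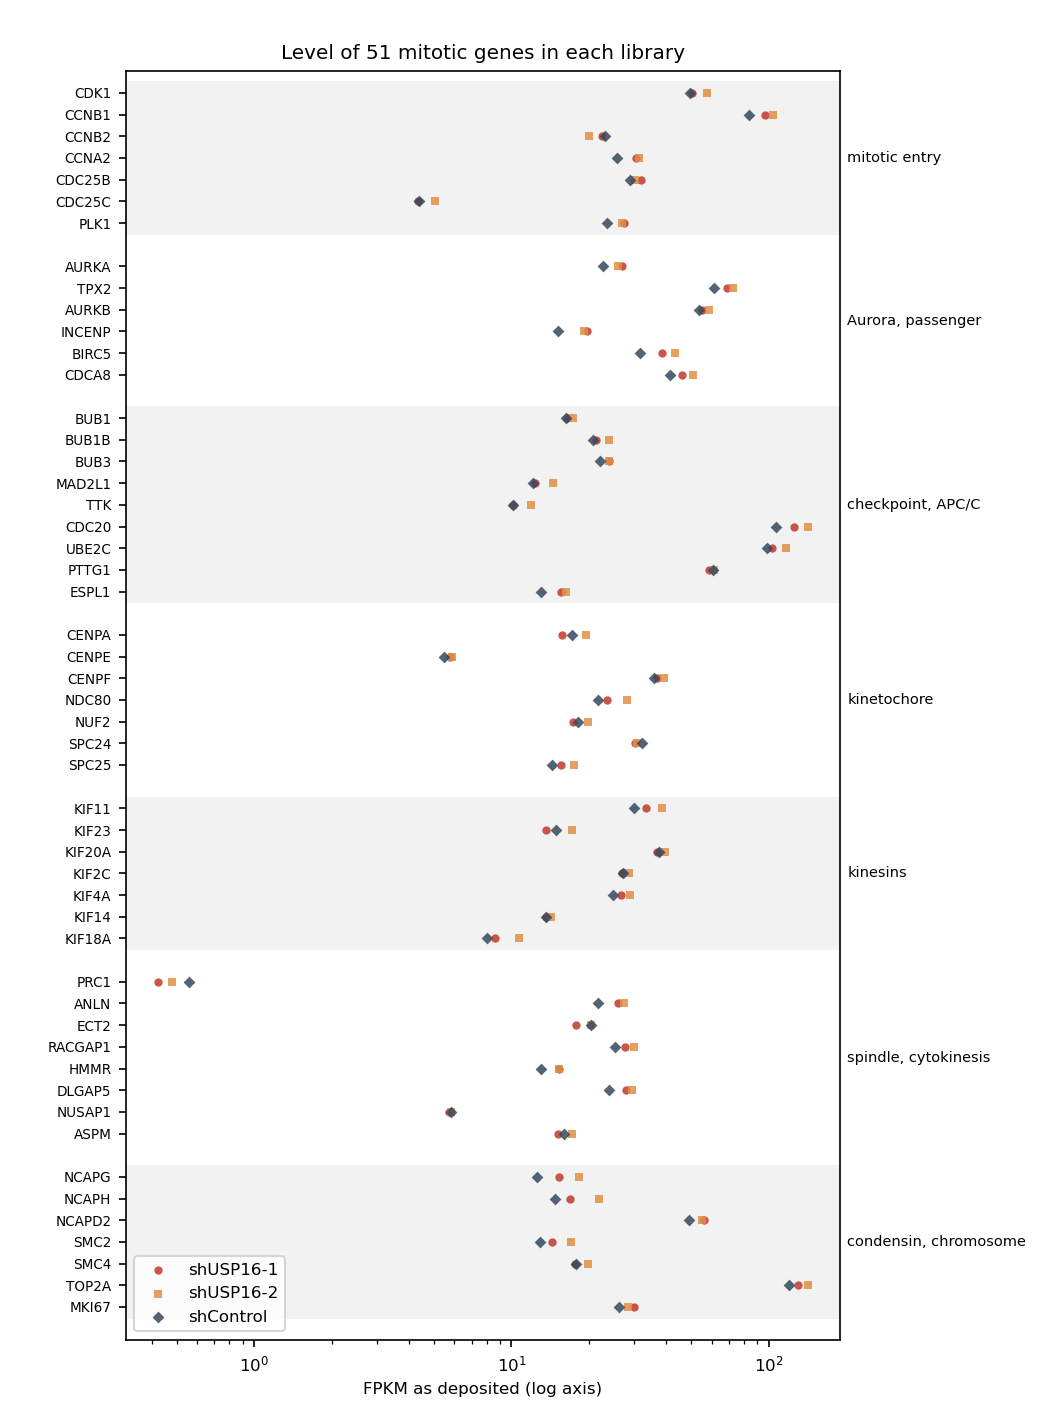
Each row is a gene, grouped by role, and each point its deposited FPKM in 1 library (log axis), for shUSP16-1, shUSP16-2 and shControl. Points of the same gene lie close together, and PRC1 lies under 1 FPKM in every library.

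The comparison of shUSP16 with shControl asks whether mitotic gene expression differs when USP16 is targeted. No mitotic gene passed the test: limma on log2(FPKM + 1) called 0 of 50, and 0 of all 13852 genes (0%), with an adjusted p threshold of 0.05. At an unadjusted p under 0.05 limma had 2 of the 50 (INCENP and BIRC5), while 14.5% of all genes passed that level. The lowest adjusted p in limma among the 50 was 0.321, for INCENP. limma restricted to protein-coding genes called 0 of 50 mitotic genes, against 0.434% of 11069 genes, and had 5 of them at an unadjusted p under 0.05, against 18.5% of those genes. limma on genes with a mean of 5 FPKM or more called 0 members, against 0.17% of 7639 genes, with 4 members and 19.1% of genes at an unadjusted p under 0.05. limma voom on recovered reads also called 0 of 50, against 2.51% of all genes with the authors' totals and 4.02% with sums of reads, with 7 and 1 members, against 19% and 18% of genes, at an unadjusted p under 0.05.

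In direction, 36 of the 50 were higher than shControl in both shUSP16 libraries and 4 were lower in both, but the count depended on scaling. The same held for 44.9% of all tested genes (higher in both) and 32.4% (lower in both), and for 60.1% and 20.2% of the 7043 protein-coding genes averaging 5 FPKM or more, which are closer to the mitotic genes in level. Both shUSP16 libraries are set against the same shControl library, so their agreement in direction is not that of independent comparisons, here and in the lists below. With libraries scaled to equal sums of reads, 24 of 50 were higher in both and 11 lower in both, against 31.3% and 45.4% of all tested genes and 41.7% and 34.9% of those 7043. Scaled instead by the median ratio over genes above 0 in every library, 36 of 50 were higher in both, as with the deposited values. The shares over all genes were not computed with that scaling. The median log2 difference of the 50 was 0.10 in shUSP16-1 and 0.20 in shUSP16-2, where all tested genes had 0.041 and 0.043 and the better expressed protein-coding genes had 0.11 and 0.13. With equal sums of reads the medians of the 50 were 0.012 and 0.088, against -0.037 and -0.057 for all tested genes and 0.022 and 0.017 for the better expressed protein-coding genes. The mitotic median thus lay slightly below that of the better expressed genes in shUSP16-1 and above it in shUSP16-2, both as deposited and with equal sums of reads.

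The differences were small and close together. No mitotic gene was 1.5-fold or more from shControl in both shUSP16 libraries on the log2(FPKM + 1) scale. Among all tested genes 0.96% were that much higher and 2.01% that much lower, and among the better expressed protein-coding genes 0.653% and 0.412% were. Differences in limma ran from -0.11 for CCNB2 to 0.39 for NCAPG, with an SD over the 50 genes of 0.12, against 0.31 over all tested genes and 0.23 over the better expressed protein-coding genes. Counting error alone was exceeded more often: the exact binomial 95% interval of the ratio of reads lay above 1 for 25 of 51 genes and below 1 for 5 in shUSP16-1, and above 1 for 44 and below 1 for 1 in shUSP16-2. With sums of reads those counts were 17 above and 16 below in shUSP16-1, and 29 above and 4 below in shUSP16-2. The same shares were not computed over all genes, so these counts do not set the mitotic genes apart.

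**Figure D3:**
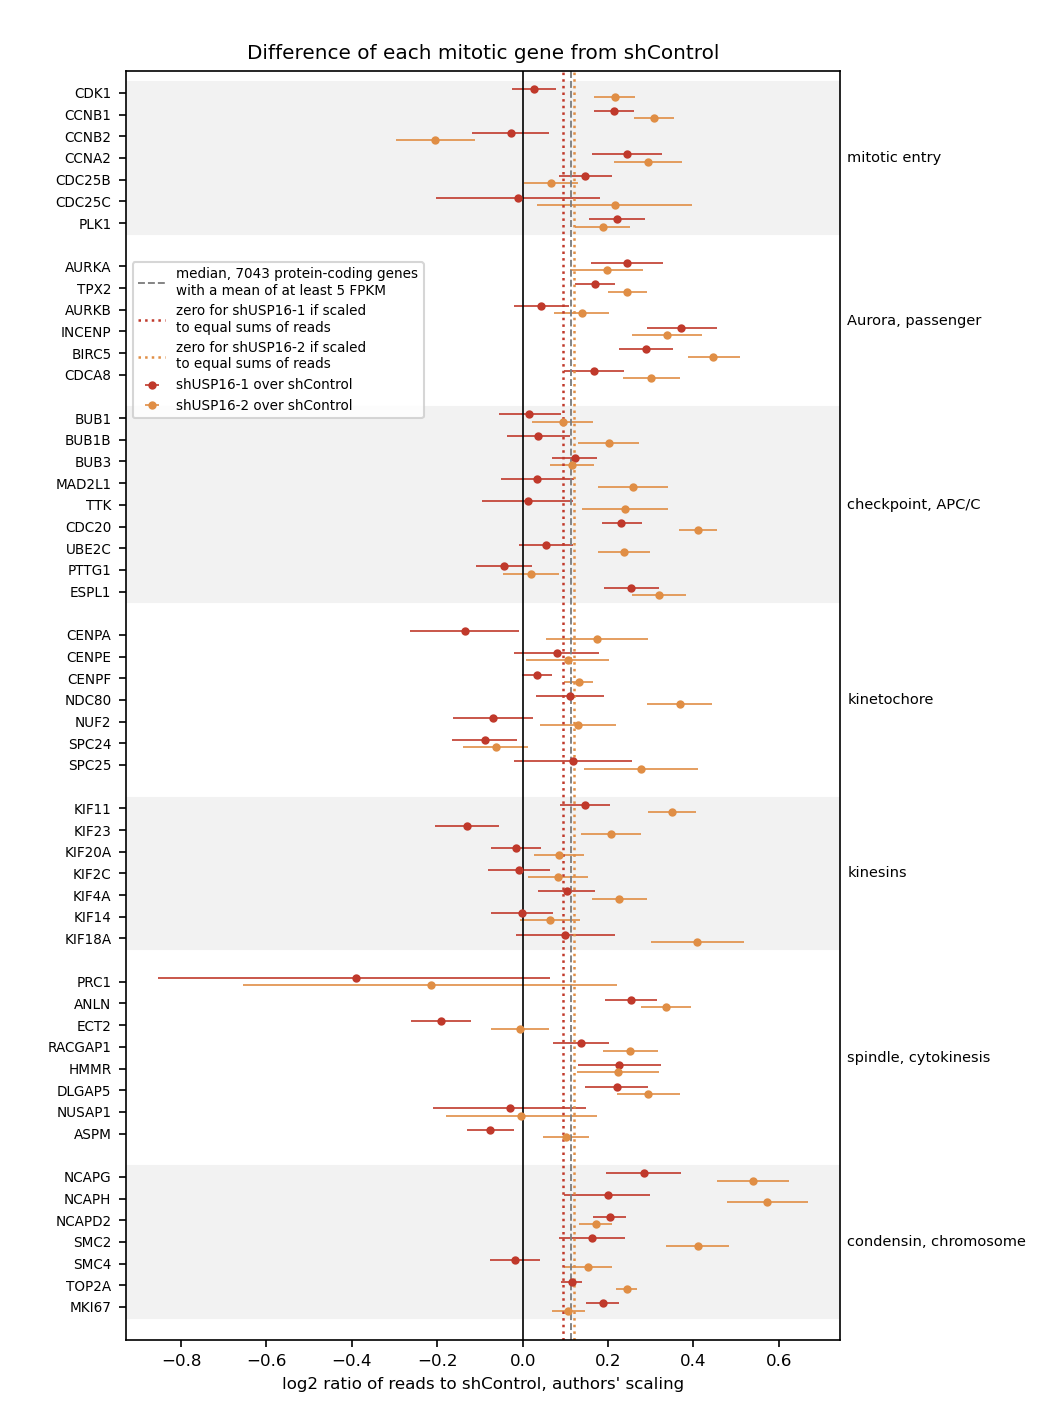
Points are log2 ratios of reads to shControl for each mitotic gene in shUSP16-1 and shUSP16-2, with exact binomial 95% intervals that cover counting error only. The dashed line is the median of better expressed protein-coding genes, and dotted lines mark where zero would lie with equal sums of reads (0.095 for shUSP16-1, 0.12 for shUSP16-2). Most points lie right of zero as deposited. Points of shUSP16-1 scatter around their dotted line, while most of those of shUSP16-2 lie right of theirs.

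Of the 7 genes of mitotic entry, 5 were higher and 1 lower in both shUSP16 libraries as deposited, and 3 and 1 with equal sums of reads. CCNB1 and CCNA2 were the highest relative to shControl and CCNB2 the lowest. CDK1, the master kinase (chromosome 10), had 50.6 FPKM in shUSP16-1 and 57.6 FPKM in shUSP16-2, against 49.6 FPKM in shControl. With the authors' scaling shUSP16-2 stood apart beyond counting error, at a ratio of 1.16 (95% interval 1.122 to 1.201), and shUSP16-1 did not. With equal sums of reads the ratios were 0.954 (0.921 to 0.989) in shUSP16-1 and 1.07 (1.03 to 1.10) in shUSP16-2, on opposite sides of 1. The limma difference was 0.12 with an SE of 0.13. CCNB1, its activating cyclin (chromosome 5), had 97.2 FPKM in shUSP16-1 and 103.7 FPKM in shUSP16-2, against 83.8 FPKM in shControl, a log2 difference of 0.26 with an SE of 0.11 (limma adjusted p = 0.370). CCNA2, which acts in S phase and early mitosis, had 30.4 FPKM in shUSP16-1 and 31.4 FPKM in shUSP16-2, against 25.7 FPKM in shControl. CCNB2, the second B-type cyclin, went the other way, with 22.6 FPKM in shUSP16-1 and 19.97 FPKM in shUSP16-2, against 23.0 FPKM in shControl. With the authors' scaling its interval lay below 1 in shUSP16-2 alone, at 0.868 (0.814 to 0.925). It did so in both with equal sums of reads, at 0.919 (0.863 to 0.978) in shUSP16-1 and 0.798 (0.749 to 0.851) in shUSP16-2. PLK1 (ENSG00000166851, chromosome 16) had 27.4 FPKM in shUSP16-1 and 26.8 FPKM in shUSP16-2, against 23.5 FPKM in shControl. Both shUSP16 libraries were higher, at ratios of 1.17 (1.11 to 1.22) and 1.14 (1.09 to 1.19), yet limma gave a difference of 0.20 (SE 0.12, adjusted p = 0.467), short of the threshold. CDC25B had 32.0 FPKM in shUSP16-1 and 30.3 FPKM in shUSP16-2, against 28.9 FPKM in shControl, and CDC25C had 4.33 FPKM in shUSP16-1 and 5.06 FPKM in shUSP16-2, against 4.36 FPKM in shControl. These phosphatase genes had log2 differences of 0.10 and 0.085 as deposited and of -0.00063 and -0.0035 with equal sums of reads.

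All 6 genes of the Aurora kinases and the chromosomal passenger complex, which corrects wrong attachments, were higher in both shUSP16 libraries, and 5 of 6 were with equal sums of reads. BIRC5, the survivin subunit (ENSG00000089685, chromosome 17), had 38.6 FPKM in shUSP16-1 and 43.1 FPKM in shUSP16-2, against 31.6 FPKM in shControl. INCENP, the scaffold that binds AURKB (chromosome 11), had 19.7 FPKM in shUSP16-1 and 19.2 FPKM in shUSP16-2, against 15.2 FPKM in shControl. For both genes the shUSP16 libraries lay above shControl, and for BIRC5 shUSP16-2 was also above shUSP16-1 beyond counting error, at 1.12 (1.07 to 1.16). These genes had limma differences of 0.36 (SE 0.13, adjusted p = 0.324) for BIRC5 and 0.34 (SE 0.12, adjusted p = 0.321) for INCENP. AURKB, the catalytic subunit, had 55.1 FPKM in shUSP16-1 and 58.8 FPKM in shUSP16-2, against 53.5 FPKM in shControl, and its log2 difference of 0.090 became -0.016 with equal sums of reads. AURKA, the spindle pole kinase, had 26.9 FPKM in shUSP16-1 and 26.0 FPKM in shUSP16-2, against 22.7 FPKM in shControl. TPX2, which activates AURKA on microtubules, and CDCA8, the borealin subunit, had log2 differences of 0.20 and 0.23. TPX2 stood at 69.2 FPKM in shUSP16-1 and 72.9 FPKM in shUSP16-2, against 61.5 FPKM in shControl. None of the 6 passed in limma.

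Of the 9 checkpoint and anaphase genes, 8 were higher in both shUSP16 libraries as deposited, but with equal sums of reads 2 were higher in both and 2 lower in both. As deposited, the checkpoint kinases and MAD2 lay near shControl in shUSP16-1 and above it in shUSP16-2, while their target CDC20 was higher in both. CDC20 (ENSG00000117399, chromosome 1) had 125.2 FPKM in shUSP16-1 and 141.7 FPKM in shUSP16-2, against 106.6 FPKM in shControl, at ratios of 1.17 (1.14 to 1.21) and 1.33 (1.29 to 1.37). Its limma difference was 0.32 with an SE of 0.12 (adjusted p = 0.344). TTK, the MPS1 kinase that starts the checkpoint, had 10.2 FPKM in shUSP16-1 and 11.9 FPKM in shUSP16-2, against 10.1 FPKM in shControl. MAD2L1, the MAD2 subunit that binds CDC20, had 12.4 FPKM in shUSP16-1 and 14.5 FPKM in shUSP16-2, against 12.1 FPKM in shControl. In both genes shUSP16-1 was within counting error of shControl, and shUSP16-2 was not. BUB1B, or BUBR1, had 21.3 FPKM in shUSP16-1 and 23.9 FPKM in shUSP16-2, against 20.8 FPKM in shControl. BUB1, a kinetochore kinase, had 16.4 FPKM in shUSP16-1 and 17.3 FPKM in shUSP16-2, against 16.2 FPKM in shControl, and its log2 difference of 0.052 became -0.049 with equal sums of reads. BUB3, which docks both to kinetochores, had 24.0 FPKM in shUSP16-1 and 23.9 FPKM in shUSP16-2, against 22.1 FPKM in shControl. UBE2C had 102.7 FPKM in shUSP16-1 and 116.5 FPKM in shUSP16-2, against 98.8 FPKM in shControl, so shUSP16-2 again was the one apart. At anaphase onset, ESPL1, the protease separase, had a log2 difference of 0.27. PTTG1, the securin that inhibits it, had 58.8 FPKM in shUSP16-1 and 61.5 FPKM in shUSP16-2, against 60.6 FPKM in shControl. Its intervals held 1 in both with the authors' scaling, but with equal sums of reads lay below 1 in both, at 0.909 (0.868 to 0.951) and 0.932 (0.892 to 0.975).

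The 7 centromere and kinetochore genes were mixed as deposited, with 4 higher in both shUSP16 libraries and 1 lower in both, and with equal sums of reads 2 were higher in both and 2 lower in both. NDC80 (ENSG00000080986, chromosome 18), the microtubule-binding subunit, had 23.6 FPKM in shUSP16-1 and 28.1 FPKM in shUSP16-2, against 21.8 FPKM in shControl. Its partner SPC24 had 30.3 FPKM in shUSP16-1 and 30.8 FPKM in shUSP16-2, against 32.2 FPKM in shControl. Over the NDC80 complex the log2 differences were 0.23 for NDC80, 0.19 for SPC25, 0.029 for NUF2 and -0.074 for SPC24, with SEs of 0.11 to 0.15. None passed in limma, and differences between subunits were not tested. CENPA, the centromeric histone H3, had 15.7 FPKM in shUSP16-1 and 19.5 FPKM in shUSP16-2, against 17.2 FPKM in shControl, so that the shUSP16 libraries lay on either side of shControl. The same split was seen for NUF2. SPC25 had 15.7 FPKM in shUSP16-1 and 17.5 FPKM in shUSP16-2, against 14.4 FPKM in shControl. CENPE, a kinetochore motor, and CENPF, a large coiled-coil protein, had log2 differences of 0.079 and 0.080, which became -0.013 and -0.024 with equal sums of reads.

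Of the 7 mitotic kinesins, 3 were higher in both shUSP16 libraries and 0 lower in both, and the other 4 were lower in shUSP16-1 and higher in shUSP16-2. With equal sums of reads 3 were higher in both and 3 lower in both. KIF11, the motor that pushes spindle poles apart (chromosome 10), had 33.3 FPKM in shUSP16-1 and 38.3 FPKM in shUSP16-2, against 30.1 FPKM in shControl, a log2 difference of 0.24 with an SE of 0.14 (limma adjusted p = 0.451). KIF18A, which limits chromosome oscillation, differed by 0.23 and KIF4A, a chromosome-bound motor, by 0.16. KIF18A stood at 8.63 FPKM in shUSP16-1 and 10.7 FPKM in shUSP16-2, against 8.05 FPKM in shControl. KIF20A, a motor of the cleavage furrow, had 36.9 FPKM in shUSP16-1 and 39.6 FPKM in shUSP16-2, against 37.3 FPKM in shControl. KIF2C, or MCAK, which takes microtubules apart, had 26.9 FPKM in shUSP16-1 and 28.6 FPKM in shUSP16-2, against 27.1 FPKM in shControl. In shUSP16-1 both lay within counting error of shControl with the authors' scaling, but below it with equal sums of reads, at 0.927 (0.889 to 0.966) for KIF20A and 0.931 (0.886 to 0.979) for KIF2C. KIF14, needed in cytokinesis, had 13.6 FPKM in shUSP16-1 and 14.2 FPKM in shUSP16-2, against 13.6 FPKM in shControl. KIF23, the motor of the central spindle, had 13.6 FPKM in shUSP16-1 and 17.2 FPKM in shUSP16-2, against 14.9 FPKM in shControl. Its ratios to shControl lay beyond counting error in opposite directions, at 0.914 (0.868 to 0.962) in shUSP16-1 and 1.16 (1.10 to 1.21) in shUSP16-2.

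For spindle assembly and cytokinesis, 7 of 8 genes were tested, with 4 higher in both shUSP16 libraries and 2 lower in both as deposited, and 4 and 3 with equal sums of reads. ANLN, encoding the contractile ring protein anillin (chromosome 7), had 26.0 FPKM in shUSP16-1 and 27.5 FPKM in shUSP16-2, against 21.8 FPKM in shControl, a log2 difference of 0.28 with an SE of 0.12 (limma adjusted p = 0.362). ECT2, the RhoA activator that sets the cleavage plane (chromosome 3), had 17.9 FPKM in shUSP16-1 and 20.3 FPKM in shUSP16-2, against 20.4 FPKM in shControl. With the authors' scaling shUSP16-1 alone was below shControl beyond counting error, at 0.876 (0.834 to 0.919). Both were with equal sums of reads, at 0.820 (0.781 to 0.861) in shUSP16-1 and 0.916 (0.875 to 0.960) in shUSP16-2. RACGAP1, the partner of ECT2 and KIF23, had a log2 difference of 0.19, DLGAP5 and HMMR, both microtubule-associated, 0.25 and 0.21, and ASPM, a spindle pole protein, 0.012.

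NCAPG and NCAPH, of condensin I, had the highest mean differences of the whole set, while the other condensin I genes lay lower. In shUSP16-1 alone INCENP (0.35) and BIRC5 (0.28) were above NCAPG (0.26) and NCAPH (0.19). With equal sums of reads the mean difference of each condensin I gene kept its direction except for SMC4. NCAPG (ENSG00000109805, chromosome 4), a regulatory subunit of condensin I, had 15.3 FPKM in shUSP16-1 and 18.3 FPKM in shUSP16-2, against 12.6 FPKM in shControl. NCAPH (ENSG00000121152, chromosome 2), the subunit that closes the ring, had 16.9 FPKM in shUSP16-1 and 21.9 FPKM in shUSP16-2, against 14.7 FPKM in shControl. In both genes each shUSP16 library was above shControl and shUSP16-2 was the higher. limma gave 0.39 (SE 0.15, adjusted p = 0.344) for NCAPG and 0.36 (SE 0.18, adjusted p = 0.410) for NCAPH. The ring subunits SMC2 and SMC4 differed by 0.27 and 0.064, and SMC4 by -0.038 with equal sums of reads. NCAPD2, the other regulatory subunit, had 56.3 FPKM in shUSP16-1 and 55.0 FPKM in shUSP16-2, against 48.9 FPKM in shControl. TOP2A (chromosome 17), counted from 24945 reads in shUSP16-1, 28280 in shUSP16-2 and 25094 in shControl, was the most deeply read of the set, and its ratios were 1.08 (1.06 to 1.10) and 1.184 (1.164 to 1.204). MKI67, the Ki-67 proliferation marker that coats mitotic chromosomes, had 29.9 FPKM in shUSP16-1 and 28.3 FPKM in shUSP16-2, against 26.3 FPKM in shControl. Its ratios were 1.14 (1.11 to 1.17) in shUSP16-1 and 1.08 (1.05 to 1.11) in shUSP16-2. With equal sums of reads they were 1.066 (1.039 to 1.095) and 0.991 (0.965 to 1.018), so the interval of shUSP16-2 held 1. For TOP2A they were then 1.014 (0.997 to 1.032) and 1.089 (1.07 to 1.107), so the interval of shUSP16-1 held 1. Neither gene passed in limma.

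The libraries labelled shUSP16 differed from each other in these genes, with no part played by shControl. Of the 50 tested, 41 were higher in shUSP16-2 than in shUSP16-1, as were 52.2% of all tested genes and 56.1% of the better expressed protein-coding genes. With equal sums of reads 39 were, against 47.6% and 50.2%. The median log2 gap was 0.10. In all 7 kinesins and all 7 kinetochore genes shUSP16-2 was the higher, although with equal sums of reads it was for 7 and 5. NCAPH showed the highest ratio of shUSP16-2 to shUSP16-1, at 1.30 (95% interval 1.22 to 1.38), followed by KIF23, at 1.264 (1.202 to 1.330). CCNB2 showed the lowest, at 0.884 (0.828 to 0.945). PLK1, AURKA, INCENP and BUB3 differed within counting error between the libraries, at 0.977, 0.967, 0.977 and 0.996. USP16 itself had 4.29 FPKM in shUSP16-1 and 5.98 FPKM in shUSP16-2, and its part in this gap was not tested. There is 1 library of each kind, so no test between them was possible.

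Other cell cycle genes were taken from lists by function. Among better expressed protein-coding genes 60.1% were higher in both libraries and 20.2% lower in both, and with equal sums of reads 41.7% and 34.9%. Among all tested genes the shares were 44.9% and 32.4%, and 31.3% and 45.4% with equal sums of reads. The regulators of mitotic transcription (MuvB, B-MYB, FOXM1, E2F and RB proteins) were higher in both shUSP16 libraries for 13 of 18 tested and lower in both for 2, and for 10 and 7 with equal sums of reads. MYBL2, encoding B-MYB, had 76.8 FPKM in shUSP16-1 and 80.3 FPKM in shUSP16-2, against 62.3 FPKM in shControl, with a limma difference of 0.33. E2F3 differed by 0.38, and the differences over this list ran from -0.26 to 0.43. The APC/C genes were higher in both for 9 of 16, with medians of 0.11 (shUSP16-1) and 0.10 (shUSP16-2). Of the 16, 6 were higher in both with equal sums of reads and 5 lower in both, with medians of 0.018 and -0.0095. Inner kinetochore genes were higher in both for 12 of 20, and for 10 (4 lower in both) with equal sums of reads, led by CENPO (0.43) and MIS18A (0.33), which loads CENPA. Other outer kinetochore and checkpoint genes were higher in both for 11 of 16, and for 8 (2 lower in both) with equal sums of reads, with SPDL1 at 0.42 and NSL1 at 0.39. limma called 0 genes of these lists.

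Cohesin genes, which hold sister chromatids together, were higher in both for 12 of 14, and for 11 (2 lower in both) with equal sums of reads, with STAG2 at 27.3 FPKM in shUSP16-1 and 26.6 FPKM in shUSP16-2, against 20.04 FPKM in shControl. All 3 genes of condensin II were higher in both, with and without equal sums of reads. NCAPH2 had 22.0 FPKM in shUSP16-1 and 24.9 FPKM in shUSP16-2, against 17.03 FPKM in shControl, a limma difference of 0.44 (SE 0.13, adjusted p = 0.297). Other spindle motors and pole proteins were higher in both for 19 of 24 and lower in both for 3, but with equal sums of reads for 10 and 9. Their differences ran from -0.22 to 0.37, with KIF22 at 0.35 and HAUS1 at 0.30. Other mitotic entry kinases, phosphatases and inhibitors were higher in both for 10 of 15 and lower in both for 3, and for 8 and 5 with equal sums of reads. PBK, a mitotic kinase, had 36.1 FPKM in shUSP16-1 and 42.4 FPKM in shUSP16-2, against 26.8 FPKM in shControl. GADD45A, a stress-induced inhibitor of the G2 to M step, was lower, with 15.1 FPKM in shUSP16-1 and 17.01 FPKM in shUSP16-2, against 22.8 FPKM in shControl (limma difference -0.49, adjusted p = 0.291), and limma voom called it only with sums of reads (adjusted p = 0.0232).

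S phase and G1 genes stood further from shControl than the mitotic genes did, by their medians. All 18 S phase genes were higher in both shUSP16 libraries, the list's medians being 0.26 (shUSP16-1) and 0.56 (shUSP16-2), and 15 of 18 were with equal sums of reads. MCM5, of the replicative helicase, had 20.2 FPKM in shUSP16-1 and 26.3 FPKM in shUSP16-2, against 14.1 FPKM in shControl. The difference between the S phase and the mitotic medians was not tested. In the G1 list 8 of 9 genes were higher in both, and 6 with equal sums of reads, with CDK4 at 17.6 FPKM in shUSP16-1 and 18.8 FPKM in shUSP16-2, against 11.6 FPKM in shControl, and CCND1, cyclin D1, at 50.99 FPKM in shUSP16-1 and 47.2 FPKM in shUSP16-2, against 33.8 FPKM in shControl. limma called none of them, while limma voom with the authors' totals called CDC45 (adjusted p = 0.0261), MCM5 (0.0187), MCM3, CDK4 (0.0286) and CCND1 (0.0324), and with sums of reads CDC45, MCM5, MCM3 and CDK4. Among all tested genes limma voom called 2.51% with the authors' totals and 4.02% with sums of reads. It called no mitotic gene of the 50 in either setting.

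**Figure D4:**
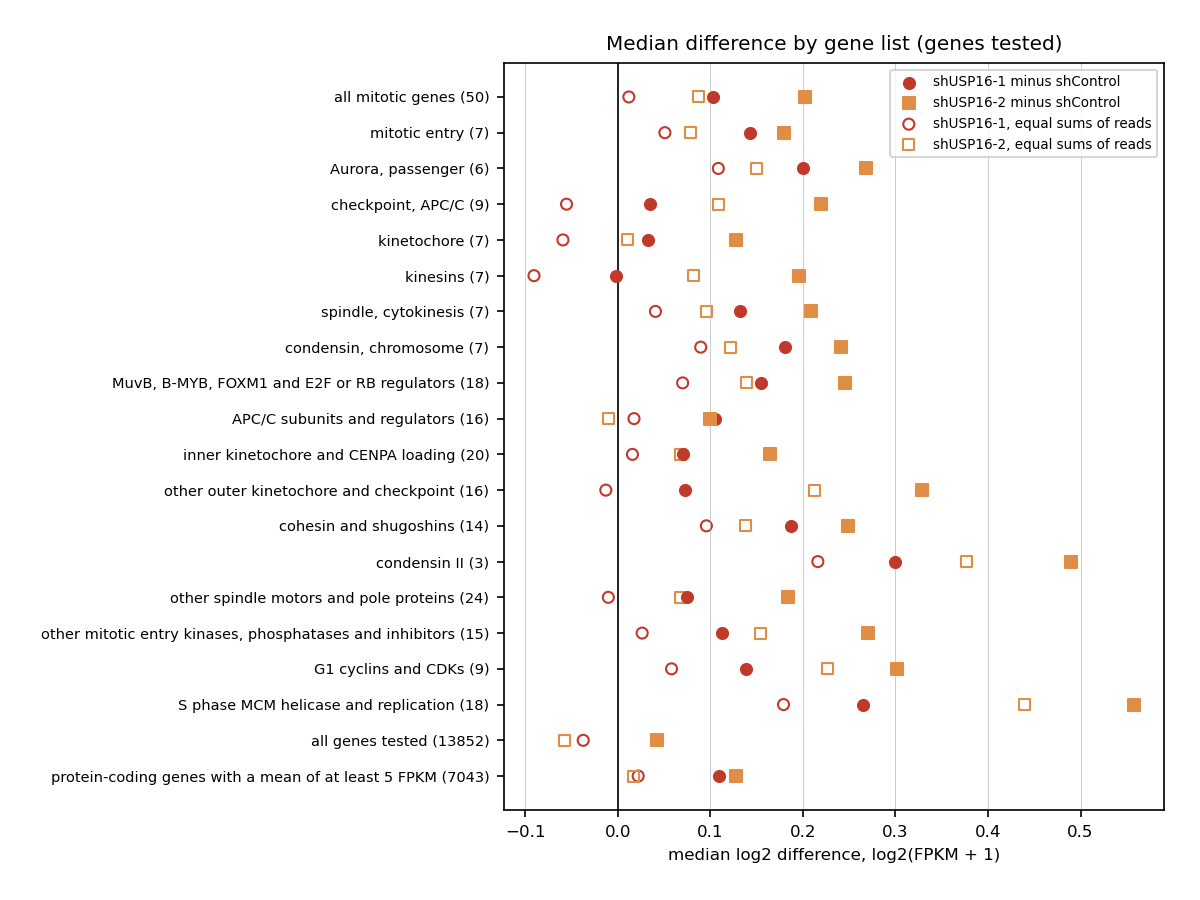
Points are the median log2 difference from shControl of each gene list in shUSP16-1 and shUSP16-2, filled as deposited and open with equal sums of reads, with the number of genes tested in brackets. The mitotic genes have medians of 0.10 and 0.20 as deposited, the S phase list 0.26 and 0.56, and all tested genes 0.041 and 0.043. In shUSP16-1 the open points of the checkpoint, kinetochore and kinesin role groups lie left of zero. In shUSP16-2 no role group has its open point there, while all tested genes have theirs left of zero in both libraries.

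PRC1, which bundles the central spindle, was the one member under the level filter, with 0.424 FPKM in shUSP16-1 and 0.479 FPKM in shUSP16-2, against 0.556 FPKM in shControl. Those values rest on 70, 82 and 100 reads, and as deposited the ratio intervals held 1 in both shUSP16 libraries. On the same strand, 57.6% of the exonic bases of PRC1 also lie in exons of AC068831.7, which had 556 reads in shUSP16-1, 603 in shUSP16-2 and 690 in shControl. Summed with it, the ratios to shControl were 0.863 and 0.911. NUSAP1, a spindle microtubule bundler averaging 5.77 FPKM, shares 62.2% of its exonic bases with AC087721.2, which had 0 reads in every library. Levels of both genes are therefore uncertain. On the opposite strand, LCORL covers 33.1% of the exonic bases of NCAPG, with 633 reads in shUSP16-1, 704 in shUSP16-2 and 669 in shControl, and the sources used here do not say whether reads were counted by strand. Genes on the opposite strand also cover 25.6% of the exonic bases of SMC4 and 12.5% of those of PLK1. Summed with LCORL, NCAPG kept ratios of 1.17 and 1.37. Processed copies drew few reads: the most were 22 in shUSP16-1, 53 in shUSP16-2 and 102 in shControl for NCAPGP1, and with its copies summed the log2 ratio of NCAPG was 0.36 in place of 0.41.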

How the data were processed

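The members and lists were chosen with earlier results of these data known. RNA-seq expression was measured in 3 libraries, grouped by their titles. The values are FPKM as the authors deposited them, each library in its own column, per the file headers. No aligner, counter, strand setting or RNA selection is named. Mouse builds are listed by the submitters' processing notes as GRCm38 and mm10, yet the IDs and coordinates of 58735 genes all equal human GENCODE release 29 on GRCh38. FPKM times gene length gave whole reads for 100% of values above 0 (tolerance 0.01 reads). The totals implied by the authors' scaling were 1.01 (shUSP16-1), 0.994 (shUSP16-2) and 1.08 (shControl) times the sums of reads, so the authors' values and equal sums of reads were both used. Scaling by the median ratio over genes above 0 in every library was a further setting. Its factors on the deposited values were 0.997 (shUSP16-1), 1.003 (shUSP16-2) and 1.001 (shControl). The libraries labelled shUSP16 differed by more than sampling noise (chi-square per degree of freedom 13.1 over 18422 genes) and entered as 2 libraries.

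limma 3.58.1 (R 4.3.3) compared log2(FPKM + 1) with a variance trend and Benjamini-Hochberg adjustment over 13852 genes averaging 1 FPKM or more. The spread came from the 2 shUSP16 libraries, so shControl, as a single library, is taken to vary alike. A permutation test of 3 libraries cannot give a p under 0.333. The fits were tested on simulated data. Ratios of reads have exact binomial 95% intervals. Named genes were USP16, 15 central members, the highest and lowest of each role, members past a threshold, and the genes of the promoters shown. From each other list up to 2 genes were picked by size, as the largest same-direction difference in the weaker shUSP16 library. They are thus not typical of their lists. Members named beyond these were chosen after their values were seen. Python 3.11.15 was used with scipy 1.17.1, numpy 2.4.6, matplotlib 3.10.9 and pandas 2.3.3.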

Additional observations from a re-analysis of the deposited data

How the results depend on the processing

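limma called 0 mitotic genes under every alternative run, which changed the pseudocount, the filter on low values, the scaling, the trend, the gene class, voom and the adjusted p threshold. Over all genes the count of 0 became 13 with a mean of at least 5 FPKM, 48 among protein-coding genes, 348 with voom and the authors' totals and 557 with voom and sums of reads. The median difference of the mitotic genes, 0.14, stayed at 0.14 with median ratio scaling. It became 0.039 with equal sums of reads and 0.040 with voom on sums of reads, and ran from 0.10 to 0.20 with either shUSP16 library left out. The count of mitotic genes higher in both shUSP16 libraries, 36 of 50, stayed at 36 with median ratio scaling. It became 24 with equal sums of reads and with voom on sums of reads. With 1 library left out, the count is of genes higher in the remaining library alone, which cannot be fewer. That count was 36 for shUSP16-1 and 46 for shUSP16-2, and the same shares over all genes were not computed. With equal sums of reads the differences of 14 of the 50 mitotic genes turned from above 0 to below 0. AURKB, BUB1, KIF14 and SMC4 were among them, and their values with equal sums of reads and with voom on sums of reads were -0.016 and -0.016 for AURKB, -0.049 and -0.052 for BUB1, -0.072 and -0.077 for KIF14, and -0.038 and -0.040 for SMC4. The other turned genes were CDC25B, CDC25C, CENPA, CENPE, CENPF, NUF2, KIF23, KIF20A, KIF2C and ASPM, from -0.089 for ASPM to -0.00063 for CDC25B. With 1 shUSP16 library left out, PTTG1 ran from -0.043 to 0.019, KIF14 from -0.0023 to 0.060 and SMC4 from -0.017 to 0.15. The turns with equal sums of reads follow from the construction of that scaling, which lowers shUSP16 relative to shControl; the difference that a single library makes has no test. No paired analysis was possible because shControl has 1 library and carries no replicate number. With 1 control, every difference is a difference from that library.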

Other observations

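Protein-coding genes whose exons lie almost wholly in exons of another gene on the same strand had low values. Of 475 genes with 90% or more of their exonic bases shared, 0 had a mean of at least 1 FPKM and the median was 0 FPKM. Of 1464 genes with 10% to 90% shared, 40.7% had a mean of at least 1 FPKM. Of 18012 genes with under 10% shared, 58.1% did, with a median of 2.42 FPKM. PRC1 and NUSAP1, at 57.6% and 62.2%, were the mitotic genes with the highest share, followed by BUB1B at 10.2%. The sources used here do not say how reads in shared exons were counted, and its part in these levels was not tested.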
